A study of Mus musculus with 4 samples.

Results

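Complement components and regulators were examined as a group of 9 genes, chosen by the gene name in the array annotation: the components C3, C4b, C2 and Cfb, the proteases C1s (C1s1 in the current nomenclature) and C1ra, the regulators Serping1 and Cd55, and the receptor C3ar1. They are 9 of the 26715 genes that the array probes named, and they are covered by 15 probes. All 9 were well above background on at least 1 array, and 8 were so on all 4 arrays, the exception being Cd55. The cells are IMS/N, a line of hepatic stellate cells from livers of normal 129/Sv mice made immortal with SV40 virus, so all groups share that immortalization and none is of primary cells. Stellate cells are the liver cells that store retinoids and that lay down scar matrix once activated. The 4 groups were measured on 1 array each: cells given recombinant murine IL17A together with medium from adipose tissue-derived stem cells (ADSCs), cells given IL17A alone, cells given the ADSC medium alone, and untreated cells. The stem cells came from inguinal subcutaneous fat of male C57BL/6J mice 8 to 10 weeks old, which is a different strain from that of the line. No dose or time of IL17A or of the medium is stated in the sources used here.

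Complement is a set of plasma and membrane proteins that act in a cascade. In the classical pathway the protease C1r activates C1s, which cleaves C4 and C2, in the alternative pathway factor B takes the place of C2, and both routes lead to cleavage of C3, whose fragments mark surfaces and attract leukocytes through receptors such as C3aR1. The C1 inhibitor (Serping1) and decay-accelerating factor (Cd55) hold the cascade back. Hepatocytes make most circulating complement, and fibroblast-like cells also make several of the components.

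The 5 pairs of groups set side by side were IL17A against untreated, IL17A plus medium against medium, medium against untreated, IL17A plus medium against IL17A, and IL17A plus medium against untreated. With 1 array per group none of these differences has a replicate check, so no p-value is given, and "higher" and "lower" describe 2 arrays. Values are log2 normalized signals, quantile normalized over the 4 arrays, and a gene was counted as higher or lower if it differed at least 2-fold, with a probe well above background on whichever array was brighter. Where a probe was not well above background on the dimmer array, the difference is given as a bound, counted from the lowest signal well above background on that array where this exceeded the probe's own. Repeated spots of the same probe within an array gave a technical SD for the difference of 2 spots. For log2 signals below 5 this SD was 0.30, for those between 5 and 7 it was 0.14, and for brighter ones 0.085. Because no arrays were compared for it, differences among arrays, slides or cultures are not part of this SD. Slide 2 held both arrays with medium, and slide 1 held those of IL17A and of untreated cells. Each IL17A difference is therefore within a slide, while medium and slide cannot be told apart. In RNA from whole cultures, fewer cells of a type and less RNA per cell cannot be told apart either.

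From 58.1% to 60.5% of the 43379 spots per array were well above background and no spot was saturated. Of 12 stellate and fibroblast markers, 9 were well above background with IL17A plus medium, 7 with IL17A, 8 with medium and 8 in untreated cells, Vim, Acta2, Col1a1, Col1a2 and Pdgfrb among them on every array. Their summed linear signal was 72463 with IL17A plus medium, 79762 with IL17A, 99795 with medium and 126684 in untreated cells, lower with IL17A in both pairs. Most of that sum was Vim, Col1a1, Col1a2 and Acta2. Without medium, each marker well above background on both arrays was lower with IL17A. Within medium, Pdgfrb was higher with IL17A (10.78 against 10.55 with medium), as was Lhx2 (8.19 against 8.03). Des, Vim, Acta2, Col1a1, Col1a2 and Cygb were lower there. The stellate markers Reln, Hand2 and Gfap were not well above background on any array, and Lrat was above background only with IL17A plus medium. None of 6 hepatocyte markers, albumin included, was well above background on any array. Of 10 macrophage and leukocyte markers, 6 were well above background with IL17A plus medium and 5 on each of the other arrays, and their summed linear signal was 904 with IL17A plus medium, 1369 with IL17A, 568 with medium and 580 in untreated cells. That sum was higher with IL17A in both pairs, and most of it was Cd14, with log2 signals of 9.51 with IL17A plus medium, 10.28 with IL17A, 8.71 with medium and 8.87 in untreated cells. Csf1r was also higher with IL17A in both pairs, at 4.29 with IL17A plus medium, 4.56 with IL17A, 3.35 with medium and 3.15 in untreated cells. Lyz2, Cd68 and Fcer1g were not higher in both. Lyz2 was at 3.95 with IL17A plus medium, 3.24 with IL17A, 4.12 with medium and 3.66 in untreated cells. On the same arrays Cd68 was at 6.41, 5.91, 6.46 and 5.82, and Fcer1g at 4.99, 4.59, 4.55 and 4.74. Ptprc was well above background only with IL17A plus medium, at 3.73. Adgre1, Clec4f, Itgam and Tyrobp were not well above background on any array. Of 6 endothelial markers 2 (Kdr and Stab2), and of 5 adipose stromal markers 4 (Cd34, Pdgfra, Pi16 and Ly6a), were well above background on every array, with summed signals of 28.8 to 35.6 and of 14723 to 23980. The part of these markers in the complement differences was not tested.

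The probe sequences of C3 and C2 are shown because these genes gave the clearest difference in each direction with IL17A, and each was read by a pair of probes at different places of the transcript. All positions are on mm9, minus strand, and the sequences are those of the array files, 5′ to 3′ as deposited. The first C3 probe (chr17:57343416-57343475) was spotted 10 times per array. The second covers a stretch of genome longer than its own 60 bases (chr17:57364538-57364695) and so crosses a splice junction, as does the second C2 probe (chr17:35000126-35000301), while the first C2 probe lies at chr17:34999575-34999634.
C3 first probe: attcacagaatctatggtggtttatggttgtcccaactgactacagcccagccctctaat
C3 second probe: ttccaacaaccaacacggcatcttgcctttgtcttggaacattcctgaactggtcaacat
C2 first probe: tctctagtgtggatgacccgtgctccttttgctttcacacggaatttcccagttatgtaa
C2 second probe: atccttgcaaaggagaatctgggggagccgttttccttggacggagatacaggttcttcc

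C3, the central component at which all complement routes meet, was far higher with IL17A and remained above untreated when the ADSC medium was also present. Its log2 signal was 8.93 with IL17A plus medium, 10.65 with IL17A, 5.93 with medium and 5.20 in untreated cells. The spots of the first probe had SDs of 0.068 with IL17A plus medium (9 of 10 spots used), 0.051 with IL17A (10 spots), 0.076 with medium (9 of 10 spots used) and 0.12 in untreated cells (10 spots). In processed signal before normalization between arrays, the spots ranged from 450 to 524 with IL17A plus medium, 1484 to 1683 with IL17A, 51.6 to 61.2 with medium and 36.6 to 46.6 in untreated cells. No range touched another, so the order IL17A, IL17A plus medium, medium, untreated exceeded the spread between spots at every step.

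**Figure D1:**
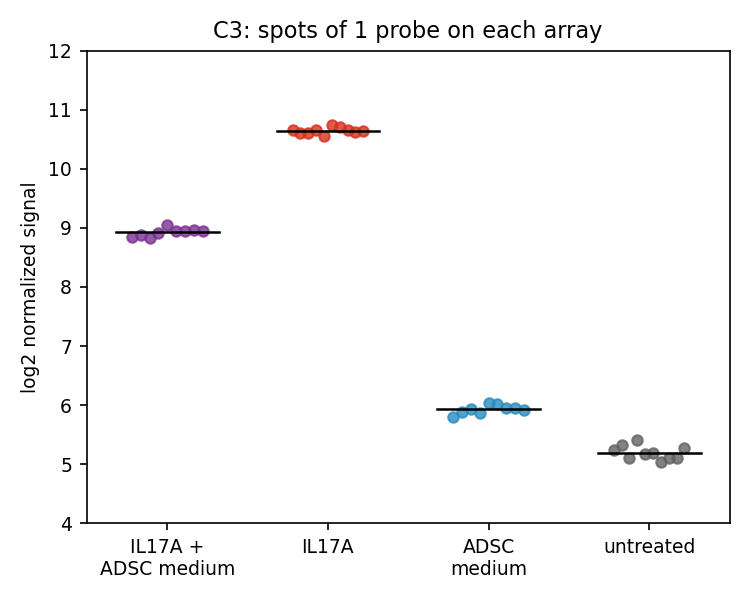
Log2 normalized signal (vertical axis) of each used spot of the first C3 probe on the 4 arrays, from left to right IL17A plus ADSC medium, IL17A, ADSC medium and untreated, with a black line at the mean of the spots. The means are 8.93, 10.65, 5.93 and 5.20, and the spots of different arrays do not overlap.

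C3 was 43.8-fold higher with IL17A than in untreated cells (log2 difference 5.45, SE over spots 0.040), rank 6 from the top of 15649 genes with bounds ranked at their value. In the presence of the medium the IL17A difference was smaller, 7.98-fold (log2 2.996, SE over spots 0.034), rank 32 of 16051. The medium set beside IL17A went with a 3.30-fold lower signal (log2 -1.72, SE over spots 0.028), whereas the medium without IL17A went with a 1.66-fold higher one (log2 0.73, SE over spots 0.045). With both agents C3 was still 13.3-fold above untreated cells (log2 3.73), rank 21 of 16238. The second C3 probe was well above background only with IL17A, where it was at least 0.94 higher in log2 than in untreated cells. Against IL17A, IL17A plus medium gave -0.91 or less on it. Its order thus matched the first probe as far as it was measured.

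C2, the component that C1s cleaves to form part of the classical C3 convertase, was lower with IL17A. C2 had a log2 signal of 10.61 with IL17A plus medium, 9.92 with IL17A, 11.24 with medium and 11.35 in untreated cells. The medium and untreated arrays lay close together, and the IL17A array was the lowest. C2 was 1.55-fold lower with IL17A plus medium than with medium (log2 -0.63) and 2.69-fold lower with IL17A than in untreated cells (log2 -1.43). The second C2 probe gave -0.71 and -1.33 for the same pairs. Medium added to IL17A went with a higher C2 signal, by 0.68 on the first probe and 0.66 on the second, while medium alone differed from untreated by -0.12 and 0.040.

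Cfb, factor B of the alternative pathway, is the neighbour of C2 on chromosome 17 and was read by a probe that spans a junction (chr17:34993502-34993858). The log2 signal of Cfb was 4.01 with IL17A plus medium, 4.55 with IL17A, 4.33 with medium and 4.90 in untreated cells, all in the range where spots differ most. No pair reached a 2-fold difference. The IL17A differences were -0.32 within and -0.35 without medium, each close to the technical SD of 0.30, and the lowest value against untreated was -0.89, with both agents.

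C4b, the mouse C4 of the classical and lectin pathways (probe at chr17:34866361-34866420), had log2 signals of 4.04 with IL17A plus medium, 3.48 with IL17A, 3.98 with medium and 4.01 in untreated cells. Only the IL17A array stood lower than the rest, at -0.53 against untreated, and the largest difference in any pair was 0.56. The C4b probe also lists accessions of its near-identical neighbour C4a, so the signal may come from either gene. A separate C4a probe was not well above background on any array, and which gene gave the C4b signal was not tested.

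C1s1 and C1ra, the genes of the proteases that start the classical pathway and neighbours on chromosome 6, shared a pattern unlike that of C3. C1s1 (first probe at chr6:124480828-124480887) had log2 signals of 7.45 with IL17A plus medium, 8.76 with IL17A, 6.23 with medium and 7.38 in untreated cells. C1ra (probe at chr6:124473052-124473111) had 10.25 with IL17A plus medium, 11.26 with IL17A, 9.43 with medium and 10.40 in untreated cells. In both genes the IL17A array was the highest, the medium array the lowest, and the array with both agents lay beside the untreated one.

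For C1s1 the IL17A difference was 1.23 (2.34-fold) within medium and 1.38 (2.60-fold) without it. For C1ra it was 0.81 (1.76-fold) within medium and 0.85 (1.80-fold) without it. These 2 pairs share no array. With quantile normalization the IL17A difference moved by -0.15 for C1s1 and -0.037 for C1ra. Both moves were less than the technical SD of such a difference of differences, 0.19 and 0.12. The medium differences, which by arithmetic move by the same amount, were -1.31 with and -1.15 without IL17A for C1s1, and -1.01 with and -0.97 without for C1ra. With both agents C1s1 was 0.071 and C1ra -0.16 from untreated. How close the IL17A differences lay depended on the processing. Under median scaling they were 1.106 within and 1.604 without medium for C1s1, and 0.596 and 1.096 for C1ra. Both gaps exceeded the technical SDs of 0.19 and 0.12. Normexp background correction also left a larger gap for C1s1 (0.831 and 1.177), but not for C1ra (0.778 and 0.806). Under 75th percentile scaling both genes stayed within those SDs (1.318 and 1.379, and 0.809 and 0.871).

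The second C1s1 probe gave IL17A differences of 1.71 within and 1.43 without medium, and medium differences of -1.10 with and -1.38 without IL17A. Both C1s1 probes had the same sign in every pair. C1ra was read by a single probe and has a near-identical copy, C1rb, whose own probe had log2 signals of 6.48 with IL17A plus medium, 7.52 with IL17A, 5.85 with medium and 6.37 in untreated cells. Its highest and lowest arrays were those of C1ra, and whether either probe also catches the other transcript was not tested. C1s2, the copy of C1s1, was not well above background on any array. The C1s1 difference with medium alone was just short of 2-fold under median scaling (-0.99), and the C1ra difference with medium added to IL17A was so under 75th percentile scaling (-0.998) and normexp background correction (-0.98). Normexp also left C1s1 short of 2-fold with medium alone (-0.80) and with IL17A within medium (0.83).

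**Figure D2:**
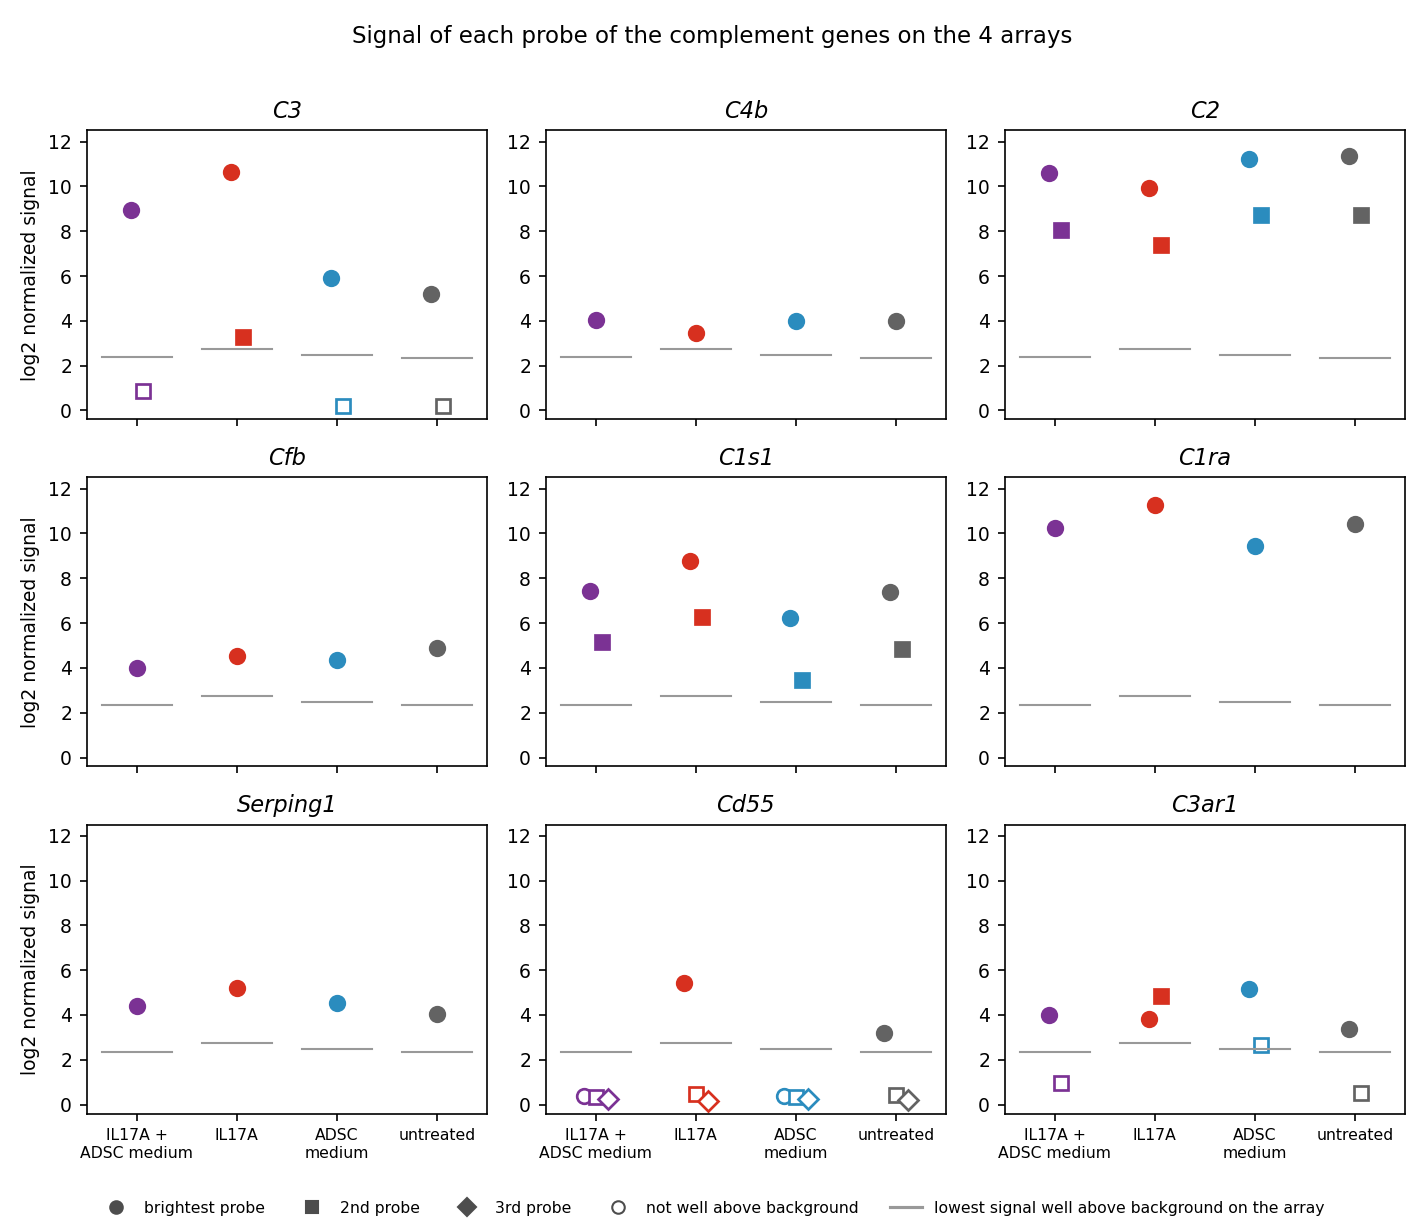
Log2 normalized signal (vertical axis) of every probe of the 9 complement genes on the 4 arrays, from left to right IL17A plus ADSC medium, IL17A, ADSC medium and untreated. Circles are the brightest probe of a gene, squares and diamonds further probes, open symbols are not well above background, and the grey line is the lowest signal well above background on that array. C3, C1s1, C1ra, Serping1 and Cd55 are highest with IL17A, C2 is lowest with it, and C3ar1 is highest with medium on its first probe.

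Serping1, the inhibitor of C1r and C1s, was higher with IL17A alone, on a probe at chr2:84605968-84607474 that also spans a junction. Serping1 had log2 signals of 4.39 with IL17A plus medium, 5.19 with IL17A, 4.55 with medium and 4.05 in untreated cells. The IL17A array stood above the rest, and the other arrays lay within 0.50 of each other. Serping1 was 2.20-fold higher with IL17A than in untreated cells (log2 1.14), but -0.15 from the medium array when IL17A was given within medium, a value inside the technical SD of 0.30. The 2-fold call was lost under 75th percentile scaling, at 0.95, and under normexp background correction, at 0.34.

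Cd55, the membrane protein that takes apart the convertases, was seen on its first probe only and only without medium. Its log2 signal was 5.44 with IL17A and 3.20 in untreated cells, and it was not well above background with IL17A plus medium or with medium. Cd55 was 4.72-fold higher with IL17A than in untreated cells (log2 2.24). It was at least 8.41-fold lower with IL17A plus medium than with IL17A, and at least 1.66-fold lower with medium than in untreated cells. The first probe spans a junction (chr1:132336925-132344911), and the 2 further Cd55 probes were not well above background on any array, so the probes disagree on whether the gene was detected. With the mean of its probes the IL17A difference was 0.75, and with normexp 0.53, neither of them 2-fold. For medium added to IL17A, normexp left the bound short of 2-fold (-0.66), and the mean of probes gave no bound below 0, so neither kept that call. Cd55b, a copy of Cd55, was not well above background on any array.

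C3ar1, the receptor of the C3a fragment, had probes that disagreed. On the first probe (chr6:122798222-122798281) the log2 signal was 3.98 with IL17A plus medium, 3.80 with IL17A, 5.17 with medium and 3.39 in untreated cells, so the medium array alone stood out. The gene was 3.43-fold higher with medium than in untreated cells (log2 1.78) and 2.27-fold lower with IL17A plus medium than with medium (log2 -1.18). On the second probe (chr6:122798696-122798755) only the IL17A array was well above background, at 4.85, which is at least 2.51 above untreated cells, and against it IL17A plus medium gave -2.48 or less. The array that stood out therefore depended on the probe. The lower value within medium missed 2-fold under 75th percentile scaling (-0.99) and normexp (-0.35), and the higher value with medium did so under normexp (0.52).

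Counted together, 4 of the 9 genes were at least 2-fold higher with IL17A than in untreated cells (C3, C1s1, Serping1 and Cd55), where 2.17% of all 15880 genes measured were, and 1 was lower (C2), where 2.29% were. Their median log2 difference was 0.85, against 0.0033 for all genes. Within medium, 2 of the 8 genes measured were higher with IL17A (C3 and C1s1; 2.86% of all 16081 genes) and 1 was lower (C3ar1; 1.82% of all genes), with a median of -0.048 against -0.032 for all genes. The IL17A difference had opposite signs within and without medium for C4b, Serping1 and C3ar1, but for Serping1 both were positive under 75th percentile scaling (0.062 within medium and 0.95 without).

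Medium alone went with 1 of 9 genes higher (C3ar1; 2.45% of all 16111 genes) and 1 lower (C1s1; 2.97%) than untreated. Medium added to IL17A went with none of 9 higher (3.22% of all 15892 genes) and 4 lower (C3, C1s1, C1ra and Cd55; 3.11%), with a median of -0.66 over the 8 genes on both arrays against 0.019 for all genes. With both agents 1 of 9 was higher than untreated (C3; 3.38% of all 16255 genes) and none was lower (4.29%), with a median of 0.048 against 0.031 for all genes. The comparison of IL17A with untreated shares the IL17A array with that of medium added to IL17A, so a gene that was high on that array alone was higher in the first and lower in the second.

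**Figure D3:**
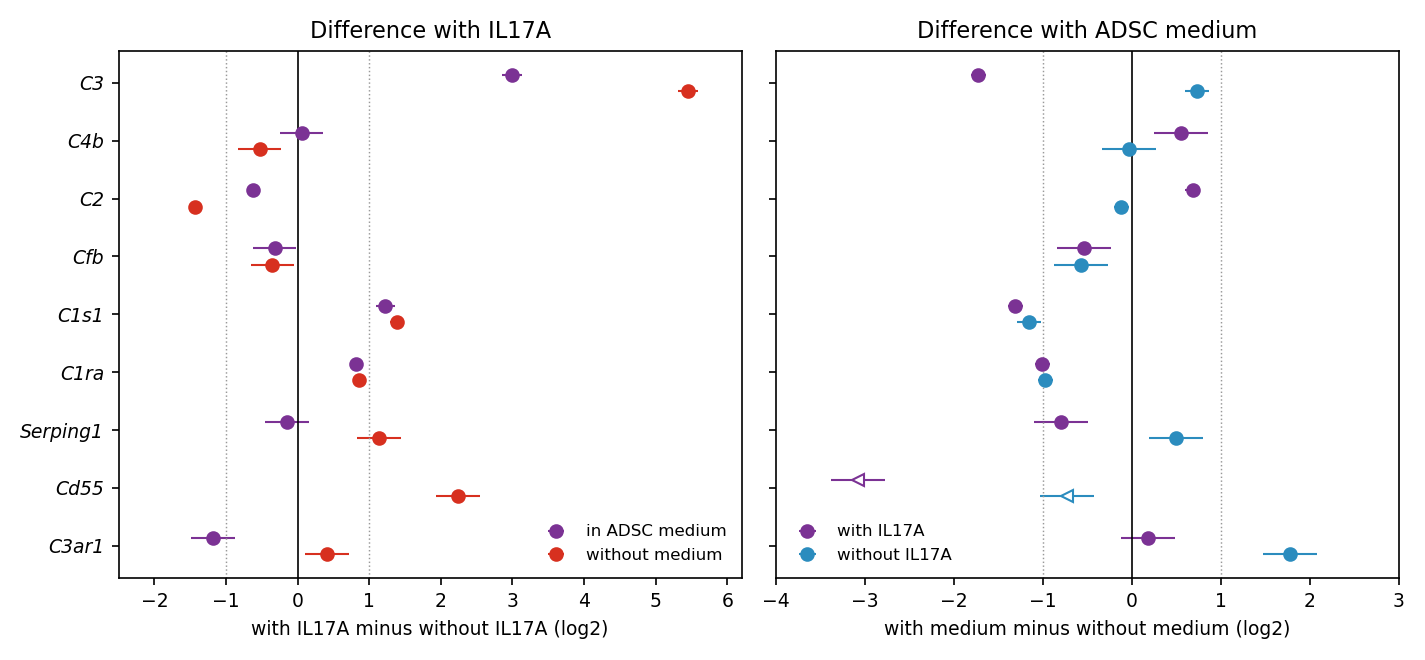
Log2 differences (horizontal axis) of the 9 genes with IL17A (left panel, within ADSC medium and without it) and with ADSC medium (right panel, with IL17A and without it). Bars are the technical SD of a difference between spots, open triangles are bounds, and dotted lines mark a 2-fold difference. C3 lies at 2.996 within medium and 5.45 without, while C1s1 (1.23 and 1.38) and C1ra (0.81 and 0.85) lie together.

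The change in the IL17A difference between medium and no medium, one value per gene with no test, was -2.46 for C3, -1.60 for C3ar1 and -1.29 for Serping1. It was 0.80 for C2, 0.59 for C4b and 0.031 for Cfb. The median over the 8 genes measured on all 4 arrays was -0.096, with 5 below 0, against -0.030 over 14477 genes, whose SD was 0.43. C3, C3ar1 and Serping1 thus lay furthest from that median and C1ra and Cfb nearest to 0.

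**Figure D4:**
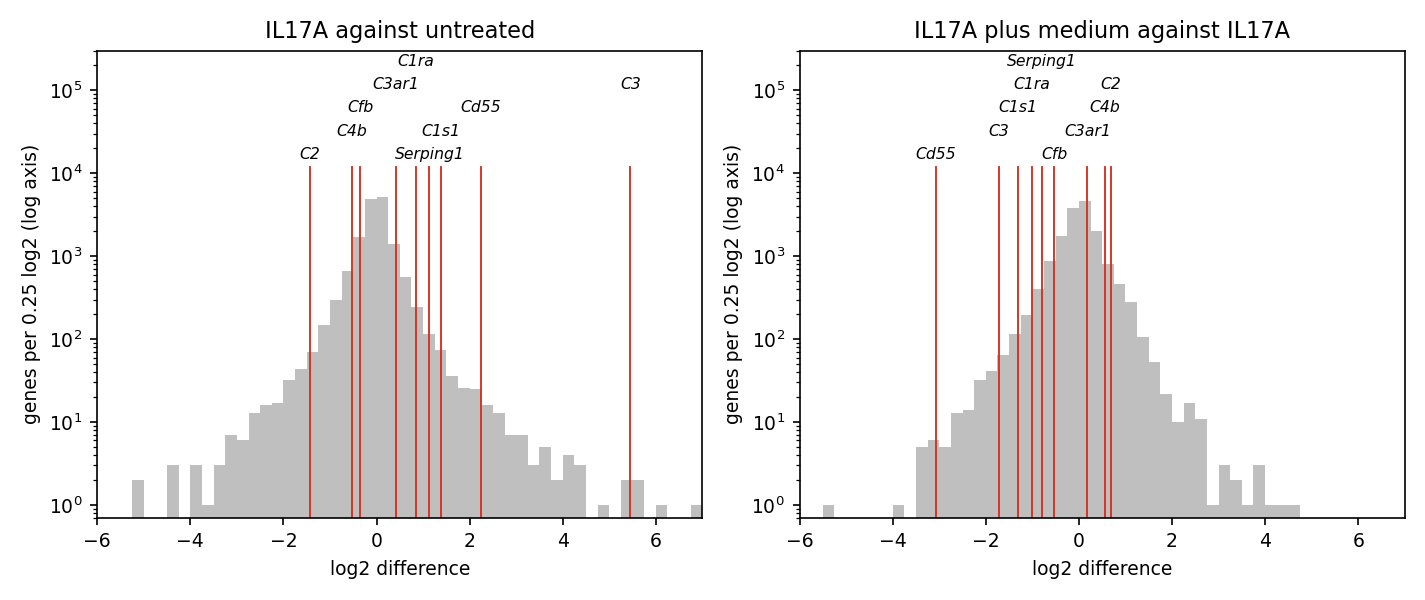
Number of genes per 0.25 log2 (vertical log axis) by log2 difference (horizontal axis) for IL17A against untreated (left) and IL17A plus medium against IL17A (right), with red lines at the 9 complement genes. C3 lies at 5.45 in the left panel and -1.72 in the right, and Cd55 at 2.24 and at its bound of -3.07.

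The authors' deposited list of probes higher with IL17A than in untreated cells holds 861 probes, where the arrays have 41174. It has 4 of the 15 probes of the 9 genes, for C3, C1s1, C1ra and Serping1. The authors' deposited list of probes higher with IL17A than with IL17A plus medium holds 1193 probes and has the same 4. Both lists share the IL17A array, so a probe high on that array alone may be in both. Neither of the authors' deposited lists holds a Cd55 probe, and no threshold is stated for them.

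Among 12147 named genes well above background on all 4 arrays, the profile of C3 was compared with each by Euclidean distance over the 4 arrays, with every gene centred on its own mean. The closest were Slc39a4, a zinc transporter (distance 0.81), Dcn, the matrix proteoglycan decorin (0.95), Gstt4 (1.05), Urah (1.16, probe named by symbol only), Zc3h12a, an RNase that degrades inflammatory transcripts (1.21), and Cebpd, a C/EBP transcription factor (1.28). Their IL17A differences were between 2.82 and 4.45 within medium and between 3.68 and 6.22 without it. The mean profile of Cfb, C2, C1s1, C1ra, C4b and Serping1 was nearly flat, between -0.28 with medium and 0.29 with IL17A, since its members differ in direction, and lay closest to Ccar1, Dlgap2 and Sptlc2.

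Of 47 other complement genes, 20 were well above background on at least 1 array and 16 on all 4. Among the initiators these were C1qb, C1rb, Fcna, Colec11, Masp1 and Masp2, with C1qa and C1qc not well above background on any array. Of the terminal components C8b and C8g were above background but C6, C7, C8a and C9 were not, and of the remaining alternative pathway and C5 genes Cfp and Hc were but Cfd was not. Within medium 1 of 19 measured was at least 2-fold higher with IL17A and 2 lower (2.86% and 1.82% of all genes), and without medium 2 of 19 were higher and 3 lower (2.17% and 2.29%). Medium added to IL17A went with 2 of 18 higher and 3 lower (3.22% and 3.11%), medium alone with 1 of 20 higher and 3 lower (2.45% and 2.97%), and both agents against untreated with 2 of 18 higher and 3 lower (3.38% and 4.29%). Their median log2 difference with IL17A was -0.11 within medium, against -0.032 for all genes, and 0.028 without medium, against 0.0033 for all genes.

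Cd93, a membrane protein once described as a C1q receptor, was the gene of that list with the highest IL17A difference, 1.71 within and 2.10 without medium. Its log2 signal was 7.13 with IL17A plus medium, 7.74 with IL17A, 5.42 with medium and 5.64 in untreated cells, so both IL17A arrays stood above the others. A further Cd93 probe was well above background only on the arrays with IL17A and gave bounds of 0.83 within and 1.64 without medium. Clu, the secreted protein clusterin that restrains the terminal complex, was lower with IL17A, at -1.30 within and -1.90 without medium. Its log2 signal was 3.20 with IL17A plus medium, 3.58 with IL17A, 4.50 with medium and 5.48 in untreated cells. Under normexp neither Cd93 nor Clu reached a 2-fold IL17A difference within medium.

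Masp1, a protease of the lectin pathway, was -1.30 with IL17A and 1.15 with medium added to IL17A on its brightest probe, while its 3 further probes were dim on 2 or more arrays and gave no 2-fold difference. Masp2 is the protease of that pathway that cleaves C4 and C2. On its brightest probe Masp2 was 1.02 higher with medium added to IL17A and 1.19 higher with both agents than untreated. A further Masp2 probe was dim on the arrays without medium and gave bounds of 0.44 and 0.85 for these pairs, short of 2-fold. Another was well above background only with medium alone and measured neither pair. For IL17A within medium it gave -0.99 or less, where the brightest probe gave 0.82, so these probes disagreed in sign. Itgb2, the beta chain of the complement receptors CR3 and CR4, was -1.56 with medium alone and -1.61 with medium added to IL17A, and C8g was -1.38 and -1.10. C8b was read by a single probe, which was well above background only in untreated cells, at 5.75. It was at least 10.5-fold lower with both agents, 8.06-fold with IL17A and 9.71-fold with medium. Under normexp its difference with both agents was short of 2-fold.

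Promoter windows of 300 bases, from 250 before to 50 after the annotated start, were found in the RefSeq table (GRCm38.p6) for 5 of the 9 genes: C3, C1s1, C1ra, Cd55 and C3ar1. Those of C3, C1s1 and C1ra are shown because these genes had a higher signal with IL17A in both pairs. Each is 5′ to 3′ on the gene's own strand, and capitals mark motif letters. The window of C3 is chr17:57228087-57228386 on the minus strand, that of C1s1 chr6:124542310-124542609 on the minus strand (the first of its 2 windows) and that of C1ra chr6:124512371-124512670 on the plus strand.
C3 promoter: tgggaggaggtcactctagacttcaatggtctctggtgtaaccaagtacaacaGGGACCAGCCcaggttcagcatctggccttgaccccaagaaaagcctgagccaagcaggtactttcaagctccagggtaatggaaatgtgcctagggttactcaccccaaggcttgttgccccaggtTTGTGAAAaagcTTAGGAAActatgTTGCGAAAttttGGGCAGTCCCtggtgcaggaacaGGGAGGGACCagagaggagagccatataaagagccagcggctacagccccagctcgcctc
C1s1 promoter: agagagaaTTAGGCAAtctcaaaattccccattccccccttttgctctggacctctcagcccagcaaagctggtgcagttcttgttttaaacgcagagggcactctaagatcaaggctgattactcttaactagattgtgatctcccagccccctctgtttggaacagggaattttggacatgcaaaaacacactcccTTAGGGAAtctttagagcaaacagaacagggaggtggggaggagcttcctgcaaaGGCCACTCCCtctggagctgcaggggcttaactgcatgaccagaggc
C1ra promoter: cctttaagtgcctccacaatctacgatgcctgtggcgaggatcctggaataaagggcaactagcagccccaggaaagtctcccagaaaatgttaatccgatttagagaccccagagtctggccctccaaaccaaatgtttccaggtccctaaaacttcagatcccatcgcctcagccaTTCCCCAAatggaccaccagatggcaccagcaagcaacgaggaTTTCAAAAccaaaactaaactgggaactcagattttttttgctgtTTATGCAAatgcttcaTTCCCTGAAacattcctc

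Motifs of 4 kinds were searched on both strands: a kappa B type (GGGANNNNCC), a C/EBP type (TTNNGNAA), a STAT type (TTCNNNGAA) and an ISRE type (TTTCNNTTTC). The kappa B type was in 20.7% of the 32851 windows of the table and in those of C3, C1s1 and Cd55. The C/EBP type was in 40.7% of windows and in those of C3, C1s1 and C1ra. The STAT type was in 8.30% and in C1ra, and the ISRE type in 3.44% and in none of the 5 genes. C3 held kappa B type letters at -197 to -188, -33 to -24 and -10 to -1 from the start, and C/EBP type letters at -70 to -63, -58 to -51 and -45 to -38, the last reading as the motif on both strands. C3ar1 had no match. These are matches of letters, of kinds found in 3.44% to 40.7% of all windows, and say nothing on whether a factor binds there.

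**Figure D5:**
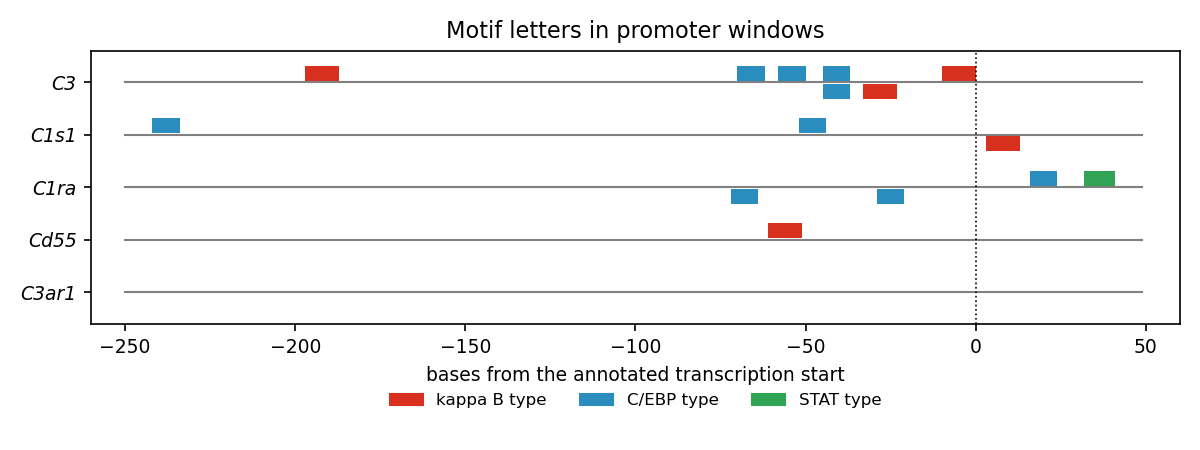
Positions of motif letters in the promoter windows of 5 complement genes, by bases from the annotated start (horizontal axis), with boxes above a line for matches on the gene's strand and below it for the other strand. C3 holds 7 matches, all but 1 of them from -70 on, and C3ar1 none.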

How the data were processed

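The 4 deposited arrays are 1-colour Agilent mouse arrays, labelled with Cy3 per the labels' protocols and read with Feature Extraction 12.1.1.1 on mm9 per the file headers. Per the file headers, the deposited intensity values are processed signals from which background and spatial trend were removed array by array. The deposited mean and background intensities were used for an alternative. Deposited score columns are flags of 0 or 1 per spot. The series design text names quantile normalization by the authors, and R 3.5.1 stands in the submitters' processing notes. Their 2 deposited lists hold probe IDs only.

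Control spots and outlier spots (100 with IL17A plus medium, 91 with IL17A, 107 with medium, 126 untreated) were left out, log2 signals were quantile normalized over the 4 arrays with limma 3.58.1 (R 4.3.3), and repeated spots were averaged. Gene names came from RefSeq accessions (GRCm38.p6) for 28688 of 41174 probes, from current symbols for 5769, from older symbols for 163 and from the file alone for 6554. Promoter sequences are RefSeq's. The probe with the highest mean stood for a gene. Python 3.11.15, pandas 2.3.3 and NumPy 2.4.6 did the rest. The size rule was checked on simulated data that held only the spread of spots within an array. That check cannot speak to variation between arrays, slides or cultures.

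All 9 genes are named with every array. Of the 47 other complement genes, the 8 with the largest difference are named, and for likeness the 6 closest genes. The members and lists were chosen with earlier results of these data known. The number of arrays limits the precision. The labels do not say that a group had more than 1 culture. Alternatives were 75th percentile and median scaling, normexp, other detection filters, averaged probes, RefSeq-matched probes and other thresholds.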

Additional observations from a re-analysis of the deposited data

Results flagged for a closer look

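The IL17A difference had opposite signs within and without ADSC medium in 4 complement genes, as a value of 2 arrays each, and the change between the pairs was not tested. It changed by -1.60 in C3ar1 (-1.18 within medium, 0.41 without), by -1.29 in Serping1 (-0.15 within medium, 1.14 without; under 75th percentile scaling 0.062 and 0.95, no longer opposite), and by 0.59 in C4b (0.055 within medium, -0.53 without). In Itgb2 the change was -0.055, with both differences near 0 (-0.051 within medium, 0.0041 without). The technical SD of such a change, from spots within an array only, was 0.43 for each of these 4 genes. With quantile normalization the change of Itgb2 was smaller than that while the other 3 were larger. Under normexp the values lay closer together, at -0.35 within medium and 0.027 without for C3ar1 and -0.045 and 0.34 for Serping1. For C4b they were 0.010 and -0.14. The C3ar1 values are those of its first probe, and on the second only the IL17A array was well above background.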

How the results depend on the processing

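Under 5 alternatives of scaling, background correction and probe choice, C3 kept its 2-fold call in every pair where it had one (4.15 to 5.60 with IL17A against untreated, 1.83 to 3.06 within medium, -2.06 to -1.54 for medium added to IL17A, 2.22 to 3.73 for both agents against untreated), and C2 kept its lower value with IL17A (-1.43 to -1.18). Of the 15 calls of the 9 genes, 12 remained under 75th percentile scaling, 14 under median scaling, 7 under normexp, 13 with the mean of probes and 15 with RefSeq-matched probes only, and no called value changed sign. In the order IL17A against untreated, IL17A plus medium against medium, medium against untreated, IL17A plus medium against IL17A, IL17A plus medium against untreated, the counts of the 9 genes past 2-fold were 5, 3, 2, 4 and 1, and those of the other complement genes 5, 3, 4, 5 and 5. Normexp, which adds an offset of 50 and so lessens differences of dim probes, gave 3, 1, 0, 2 and 1 for the 9 genes and 2, 0, 1, 1 and 0 for the others. Of all genes measured, normexp left 0.298% to 0.787% higher and 0.131% to 1.09% lower, depending on the pair. A 1.5-fold threshold gave 5 of the 9 genes within medium, for medium against untreated and for both agents against untreated, and 9, 7, 9 and 8 of the others in all pairs but IL17A against untreated. At that threshold 5.69% to 9.28% of all genes were higher and 5.89% to 10.5% lower over the pairs. A 4-fold threshold gave 2, 1, 0 and 1 in the first 4 pairs and 2, 0, 1, 0 and 2 of the others, where 0.31% to 0.701% of all genes were higher and 0.23% to 0.904% lower. Without a filter on dim probes 9, 7, 8, 11 and 8 of the others passed, and 2 of the 9 genes with both agents against untreated. Then 3.64% to 4.76% of all genes were higher and 3.57% to 5.29% lower. Median scaling gave 1 of the 9 genes for medium against untreated (2.9% of all genes higher and 2.5% lower). For medium added to IL17A it gave 3 of the others (2.79% and 3.68% of all genes). The median change of the IL17A difference was -0.50 with it. Median scaling also moved the median of all genes to 0.21, -0.24, 0.27, -0.17 and 0.056, and the cause was not tested. Over all genes, 345 were higher and 363 lower with IL17A against untreated, 460 and 292 within medium, 394 and 479 with medium alone, and 511 and 494 with medium added to IL17A. With 75th percentile scaling these splits were 263 and 533, 724 and 171, 269 and 655, and 774 and 372. With RefSeq-matched probes only they were 296 and 262, 203 and 251, 346 and 278, and 227 and 329. The larger side thus changed from that of the main setting in all 4 of these pairs. Higher genes numbered 48 to 128 under normexp and 971 to 1271 without the filter. No paired analysis was possible because each group has 1 array. Signals below a log2 of 5, which hold C4b, Cfb, most Serping1 and most C3ar1 values, carry the largest technical spread.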
